A study of Mus musculus with 8 samples.

Results

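Genes of macrophages and other myeloid cells were read in cells sorted from the E12.5 mouse hindlimb for EGFP driven by the Bapx1 locus. The set held 32 genes, taken from the platform annotation by gene symbol, with older symbols counted under the current one (Emr1 for Adgre1, Lyzs for Lyz2, Sfpi1 for Spi1). A probe was listed for 31 of them, 54 probes in all, and no probe was listed for Cd68. Of these genes, 18, read by 23 probes, were detected on enough arrays to be tested, out of 10772 genes and 19568 probes tested on the whole array. A probe was tested when its detection p, the chance that background alone gives its intensity, was under 0.05 on at least 4 of the 8 arrays. The defining macrophage genes Csf1r and Adgre1 were detected on 8 and 7 arrays, whereas Ptprc, a marker of white blood cells, and Spi1 were detected on none.

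The arrays compared cells of the Bapx1 domain with and without the homeobox gene Bapx1 (Nkx3-2), 4 arrays for each genotype, from embryos of the mixed strain C57BL/6J;129. The wildtype reporter allele, Bapx1 tm2.Tlu, is written as heterozygous in the methods and carries EGFP behind an internal ribosomal entry site in the 3' untranslated region. The null allele, Bapx1 tm4.Tlu, is homozygous and has EGFP right after the start codon. EGFP thus came from differently built alleles in the 2 groups, and no untagged or unsorted cells were analysed here. The 4 arrays of a genotype are biological replicates by the methods. As the sources used here do not say how many embryos stand behind an array, a p-value here refers to the spread among these 8 arrays alone.

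Macrophages reach the limb bud early, from yolk sac and fetal liver precursors, and clear dying cells there, among them those between the digits. They are kept by signalling through the receptor Csf1r, and the transcription factor PU.1, the product of Spi1, drives many of their genes from sites built around the letters GAGGAA. Together with complement proteins, Fc receptors and a large lysosomal system, these genes serve the uptake and digestion of dead cells and particles.

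The promoters of the set were searched for these letters. RefSeq (GRCm38.p6) gave a window of 300 bases, 250 before and 50 after the start, for 28 promoters of 24 member genes. The letters GAGGAA, on either strand, stood in 18 of the 28 windows (64.3%), against 28.3% of all 32851 promoter windows. The longer form GAGGAAGT, which contains GAGGAA, stood in 4 of 28 (14.3%), against 3.20% of all windows. By how closely the tested members followed the rest of the set across the arrays, the letters stood in the promoters of 3 of the 7 genes with a window among the closer 9 (C1qc, C1qb and Laptm5, but not Mpeg1, Lyz2, Lyz1 or Cx3cr1) and of 6 of the other 9, among them Stab1, which followed least. Stretches of 26 bases follow as examples for 6 genes that hold them, with GAGGAA in capitals, read 5' to 3' on the strand that holds it.
C1qb: agcaggatggGAGGAAcagaggggtg
C1qc: gtgccaaaatGAGGAAgtgtctgccg
Cd53: cgagaagagtGAGGAAgtgagactga
Ctss: catccacaatGAGGAAgtgaactttc
Laptm5: gaacaaaaaaGAGGAAgccacaggct
Mrc1: aaggaggacaGAGGAAgctgtccctt
The C1qb stretch is chr4:136886215-136886240 on the minus strand, the strand of the gene. The C1qc stretch is chr4:136893092-136893117 and the Cd53 stretch chr3:106790126-106790151, both on the plus strand and opposite to the gene. Ctss (chr3:95526776-95526801), Laptm5 (chr4:130913268-130913293) and Mrc1 (chr2:14229369-14229394) were read on the minus strand, opposite to the gene. Such a match describes the letters and is not a measured binding site.

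The arrays detected between 18375 and 20256 probes each, and correlations between arrays across the tested probes, which are not independent replicates, lay between 0.955 and 0.987. Bapx1 itself was not above background on any wildtype array and was detected on all 4 arrays labelled null by both of its probes, at least 10.4-fold and 8.07-fold higher there (limma, adjusted p = 9.52e-05 for each). The wildtype reporter allele is built to keep Bapx1, and these cells were sorted for EGFP from its locus, yet neither probe read it there. Why was not tested. Where those probes lie relative to the targeted part was not tested either, and a probe outside that part would not check the null label. Every direction given here therefore follows the labels, and null is short for the arrays labelled null.

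No gene of the set passed the test between genotypes (0 of 18 at an adjusted p under 0.05, limma), where 0.761% of all 19568 tested probes passed. The arrays of the null group instead differed widely among themselves in these genes. On null replicate 1 the members were lowest, on null replicate 2 they were low, on null replicate 3 they were near their mean, and on null replicate 4 they were as high as on the highest wildtype array. The mean deviation of the 18 tested members from their own mean over the 8 arrays, on the log2 scale, was -0.07, 0.24, 0.15 and 0.55 on wildtype replicates 1 to 4. The null arrays gave -0.92, -0.49, -0.07 and 0.61 in the same order. The wildtype values lie within the range of the null values, so the groups overlapped. The arrays with low values also detected fewer members, 10 of 18 on null replicate 1 and 12 on null replicate 2 against 16 to 18 on the other arrays, although null replicate 1 detected more probes overall than any other array (20256).

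**Figure D1:**
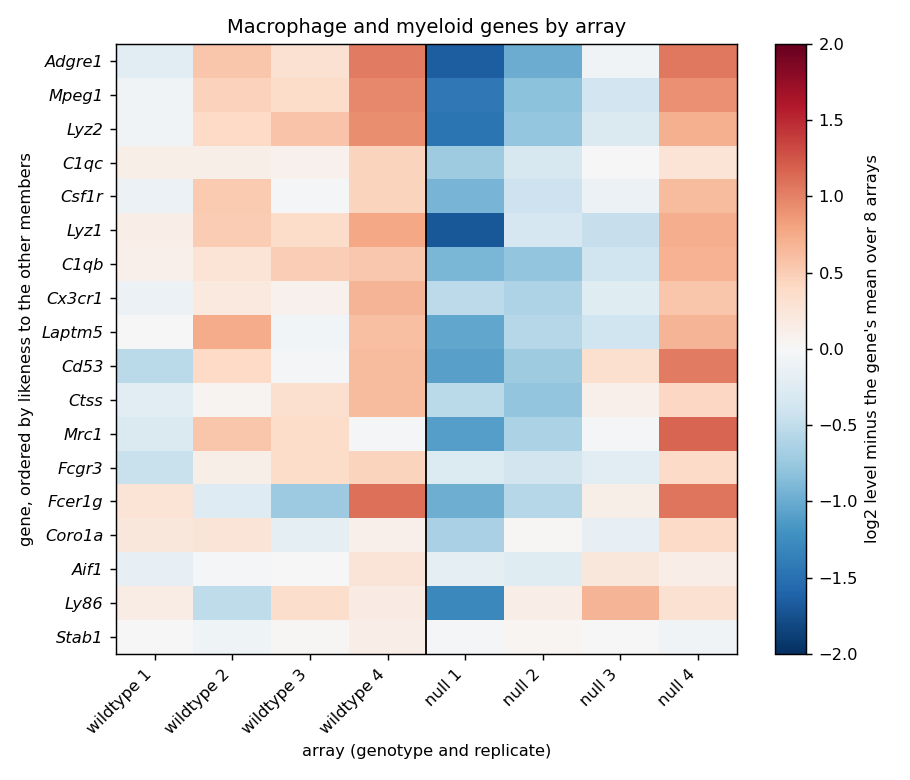
Log2 level of each tested member minus its mean over the 8 arrays (colour, from -2 to 2), one row per gene and one column per array, with the line between wildtype and null. Null replicate 1 is the lowest array for 13 of the 18 genes, and null replicate 4 and wildtype replicate 4 are high for most.

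Null replicate 1 was the lowest of the 8 arrays for 13 of the 18 members and null replicate 2 for 3. Wildtype replicate 4 was the highest for 10 and null replicate 4 for 6. In the deposited intensities, before normalization, null replicate 1 was likewise the lowest for 13, null replicate 2 for 4 and null replicate 4 the highest for 7. Wildtype replicate 4 had the lowest median intensity of all arrays (7.5) and the fewest detected probes. Before normalization it was the highest for 0, and after it for 10. Which ranking is nearer the cells was not tested. Compared with the wildtype arrays, null replicate 1 was below all 4 of them in 16 of 18 members, null replicate 2 in 13, null replicate 3 in 7 and null replicate 4 in 0. Over all tested probes the same shares were 23.7%, 28.3%, 14.5% and 22.0%. Null replicate 4 exceeded null replicate 1 in 17 of 18 members, by a median of 1.60 on the log2 scale, and by more than 1 in 13. Over all tested probes that median was 0.01, with 51.3% above 0 and 1.61% above 1. In these pooled cells, fewer macrophages and less RNA per macrophage cannot be told apart.

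Among the receptors, Csf1r binds the growth factor that keeps macrophages alive. Its normalized log2 level was 5.88, 6.53, 5.98 and 6.46 on wildtype replicates 1 to 4 and 5.07, 5.59, 5.89 and 6.64 on null replicates 1 to 4. Null replicate 4 was the highest array and null replicate 1 the lowest, and the groups overlapped. The difference was -0.41 ± 0.31 (SE, limma adjusted p = 0.662), with a 95% interval from -1.11 to 0.28. In the deposited intensities, before any normalization, Csf1r read 63.7, 75.7, 54.1 and 50.3 in wildtype and 17.7, 23.4, 44.6 and 76.9 in null cells, the same order among the null arrays.

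Adgre1 encodes the surface antigen by which mouse macrophages are commonly stained. It gave 6.00, 6.78, 6.52 and 7.26 in wildtype and 4.57, 5.23, 6.15 and 7.28 in null arrays, a span of 2.70 within the null group. Both its tested probes put null replicate 1 lowest and null replicate 4 highest, and the brighter differed between genotypes by -0.83 ± 0.52 (adjusted p = 0.596) and the other by -0.46. Cx3cr1, the receptor for fractalkine, read 5.44, 5.76, 5.65 and 6.24 in wildtype and 5.04, 4.94, 5.32 and 6.11 in null arrays, a difference of -0.42 ± 0.27 (adjusted p = 0.606). Here null replicate 2 was the lowest and wildtype replicate 4 the highest. The mannose receptor Mrc1, found on tissue macrophages and some endothelium, read 6.14, 6.99, 6.80 and 6.42 in wildtype and 5.33, 5.81, 6.42 and 7.60 in null arrays. Null replicate 4 lay above every wildtype array and null replicates 1 and 2 below every one, so that the mean difference of -0.30 ± 0.43 (adjusted p = 0.843) falls between readings in both directions.

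**Figure D2:**
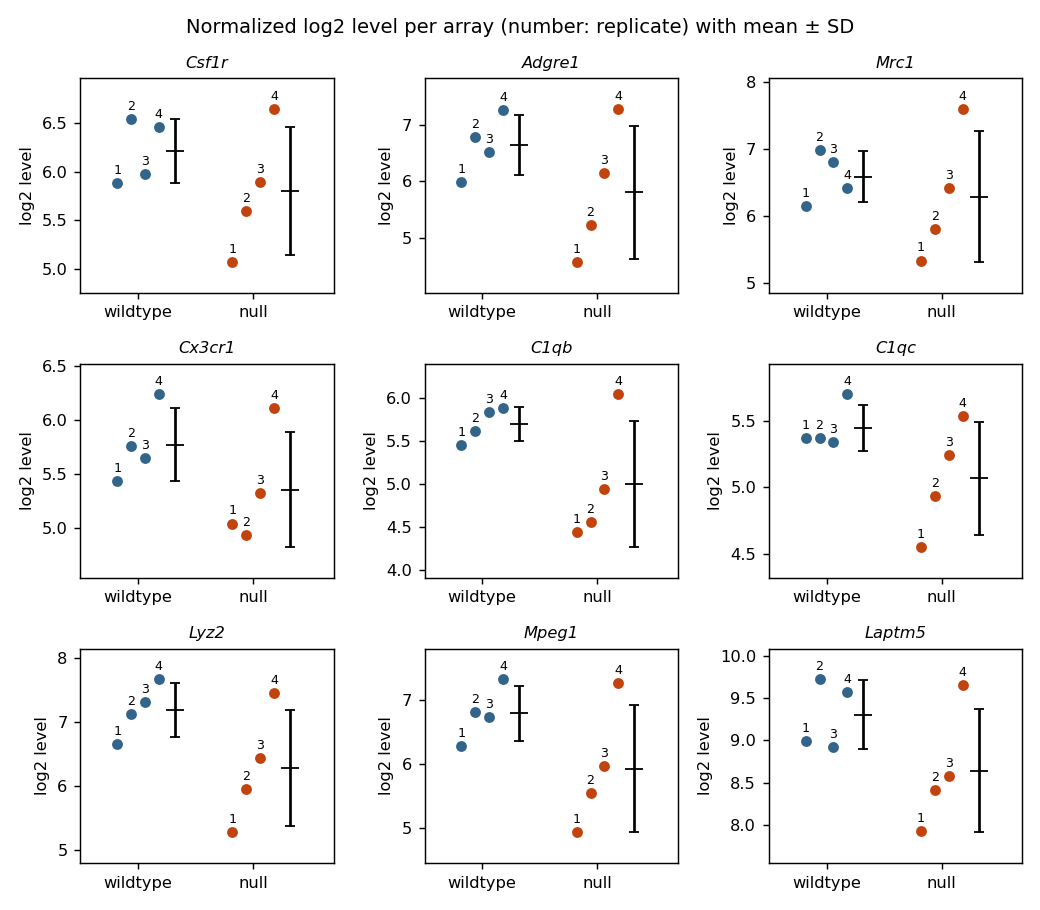
Normalized log2 level of 9 members on each array (points, numbered by replicate) with the mean and SD of each genotype (n = 4). In each panel null replicate 4 lies with or above the wildtype points, and null replicates 1 and 2 lie below every wildtype point.

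The complement subunits C1qb and C1qc, which with C1qa build the C1q molecule that tags dying cells, included the lowest unadjusted p of the set. C1qb gave 5.45, 5.61, 5.83 and 5.88 in wildtype and 4.44, 4.55, 4.94 and 6.04 in null arrays, and was detected on all 4 wildtype arrays but on null replicate 4 alone among the null arrays. It was lower in 3 of the 4 null arrays than in any wildtype array and higher in the last. The difference was -0.70 ± 0.32, with an unadjusted p of 0.0539 and an adjusted p of 0.452 from limma, with a 95% interval from -1.42 to 0.01. C1qc gave 5.37, 5.37, 5.34 and 5.70 in wildtype and 4.55, 4.94, 5.24 and 5.53 in null arrays, a difference of -0.38 ± 0.21 (adjusted p = 0.537). It was detected on all wildtype arrays and on null replicates 3 and 4, while the probe of C1qa was detected on none.

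Fc receptors take up antibody-coated particles, and their signalling chain is encoded by Fcer1g. Fcer1g varied as widely within wildtype as within null, at 5.86, 5.33, 4.86 and 6.70 against 4.62, 5.01, 5.70 and 6.66, and differed by -0.19 ± 0.49 (adjusted p = 0.919). Both groups spanned close to the same range, and replicate 4 was the highest in each. Fcgr3, a low-affinity receptor for immunoglobulin G, read 4.56, 5.12, 5.37 and 5.46 in wildtype and 4.74, 4.64, 4.80 and 5.39 in null arrays (-0.24 ± 0.23, adjusted p = 0.747). It was detected on 3 wildtype arrays and 1 null array, and here a wildtype array, replicate 1, was the lowest of all.

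The genes of the digestive and pore-forming machinery of phagocytes included the 3 largest differences of the set with the normalization used here. Without normexp C1qb (-2.70), Adgre1 (-1.76) and C1qc (-1.42) came first, ahead of Mpeg1 (-1.21) and Lyz2 (-1.14). Lyz2, the lysozyme of macrophages and granulocytes, read 6.66, 7.13, 7.31 and 7.67 in wildtype and 5.28, 5.96, 6.45 and 7.45 in null arrays. The null arrays 1 to 3 lay below every wildtype array and null replicate 4 within them. The difference was -0.91 ± 0.41 (1.88-fold, adjusted p = 0.452), with a 95% interval from -1.84 to 0.02. Lyz1, a near-identical lysozyme gene, read 7.30, 7.68, 7.54 and 7.94 against 5.48, 6.84, 6.72 and 7.90, a difference of -0.88 ± 0.42 (adjusted p = 0.473). Whether the probes of these 2 lysozyme genes read each other's transcripts was not tested.

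Mpeg1, a pore-forming protein of the macrophage phagosome, read 6.29, 6.82, 6.73 and 7.32 in wildtype and 4.93, 5.54, 5.97 and 7.27 in null arrays (-0.86 ± 0.44, adjusted p = 0.509). The first 3 null arrays were again below all wildtype arrays. Its deposited intensity was 13.9 on null replicate 1 and 125.4 on null replicate 4, while the wildtype arrays lay between 92.3 and 108.3. Ctss, the lysosomal protease that trims antigens for presentation, read 5.79, 6.06, 6.34 and 6.65 against 5.47, 5.23, 6.11 and 6.42 (-0.40 ± 0.28, adjusted p = 0.640). Its null arrays 3 and 4 lay within the wildtype range.

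Genes shared by macrophages with other white blood cells had the same order of null arrays in Laptm5 and Cd53. Laptm5, a lysosomal membrane protein of blood cells, read 8.99, 9.72, 8.92 and 9.58 in wildtype and 7.93, 8.41, 8.58 and 9.66 in null arrays (-0.66 ± 0.35, adjusted p = 0.521). Cd53, a tetraspanin, read 5.23, 6.18, 5.73 and 6.40 against 4.68, 5.07, 6.09 and 6.81 (-0.22 ± 0.45, adjusted p = 0.891), and null replicate 4 was its highest array. Coro1a, which binds actin in blood cells, read 7.99, 8.02, 7.57 and 7.85 against 7.10, 7.78, 7.60 and 8.13 (-0.20 ± 0.21, adjusted p = 0.771). For these 3 genes null replicate 1 was the lowest array.

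Aif1 and Ly86 differed little between the group means. Aif1 is the actin-binding protein known as IBA1 in microglia, and Ly86 a secreted partner of a receptor related to toll-like receptors. Aif1 read 5.02, 5.15, 5.17 and 5.44 in wildtype and 4.99, 4.93, 5.41 and 5.31 in null arrays, a difference of -0.04 ± 0.15 (adjusted p = 0.952), with a 95% interval from -0.37 to 0.30. Its second probe gave -0.22. Ly86 read 6.16, 5.50, 6.35 and 6.18 against 4.72, 6.15, 6.69 and 6.32, with null replicate 3 highest and only null replicate 1 below the wildtype arrays (-0.08 ± 0.39, adjusted p = 0.959).

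Stab1, a scavenger receptor of macrophages and sinusoidal endothelium, was read in different ways by its 3 tested probes. The brightest, which stands for the gene by the rule used for all genes, read 12.30, 12.21, 12.33 and 12.44 in wildtype and 12.29, 12.34, 12.29 and 12.23 in null arrays, a span of 0.23 over the wildtype and 0.11 over the null arrays (-0.03 ± 0.10, adjusted p = 0.933). The second read 5.63, 6.23, 5.82 and 6.40 against 5.08, 5.20, 5.96 and 6.03 (-0.45 ± 0.26, adjusted p = 0.564), with null replicates 1 and 2 below all wildtype arrays, as in most other members. The third differed by -0.05 ± 0.18. Which transcript each probe binds was not tested. Of the other genes with several tested probes, Adgre1 was read alike by both of its tested probes, and Coro1a differed by -0.20 and 0.05. Further matched probes of Adgre1, Aif1, Coro1a, Lyz1 and Mpeg1 were detected on no array and were not tested.

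**Figure D3:**
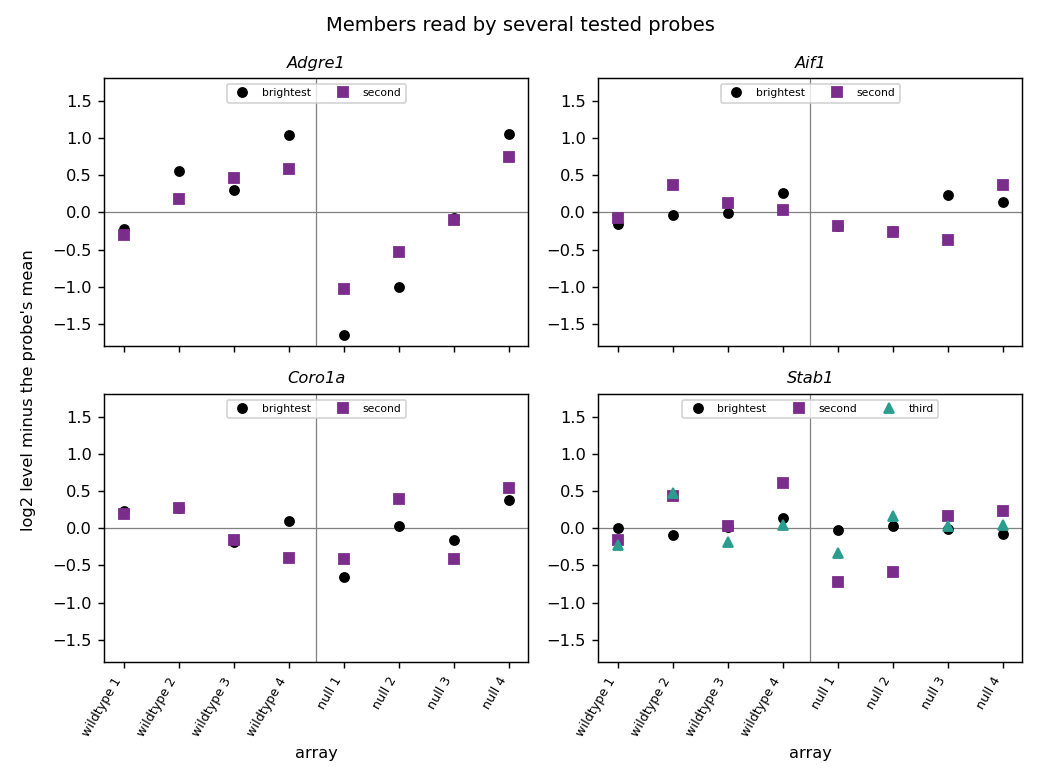
Log2 level of each tested probe minus its own mean over the 8 arrays, for the 4 members read by more than 1 tested probe, with the line between wildtype and null. Both Adgre1 probes are lowest on null replicate 1, while the brightest Stab1 probe stays within 0.23 over all arrays and the second is lowest on null replicates 1 and 2.

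Of all tested probes, 0.439% were called lower and 0.322% higher in null, and none of the 18 members was among them. None reached an unadjusted p under 0.05, where 11.3% of all tested probes did, and in none did the 4 arrays of one group stand apart from the other 4, where 3.74% of all tested probes did so with null lower. The adjusted p-values ran from 0.452 to 0.959. The fitted difference was below 0 in 18 of 18 genes, by the brightest probe, where 56.3% of all tested probes were below 0. The median over the members was -0.39, from -0.91 in Lyz2 to -0.03 in Stab1, against -0.03 over all tested probes.

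The members are not independent of each other on these arrays, so the shared sign adds no replicate. Without null replicate 1 the median became -0.20 and 13 of 18 members were below 0, and without null replicate 4 it became -0.64 with 18 of 18 below 0. Leaving out any 1 of the other arrays gave a median between -0.49 and -0.26. The spread between replicates was larger in the null group in 16 of 18 members, with a median SD of 0.73 in null and 0.37 in wildtype cells. Over all tested probes the SD was larger in null for 41.7%, and for the 10979 probes at levels between 5 and 8, which most members share, for 41.1%.

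**Figure D4:**
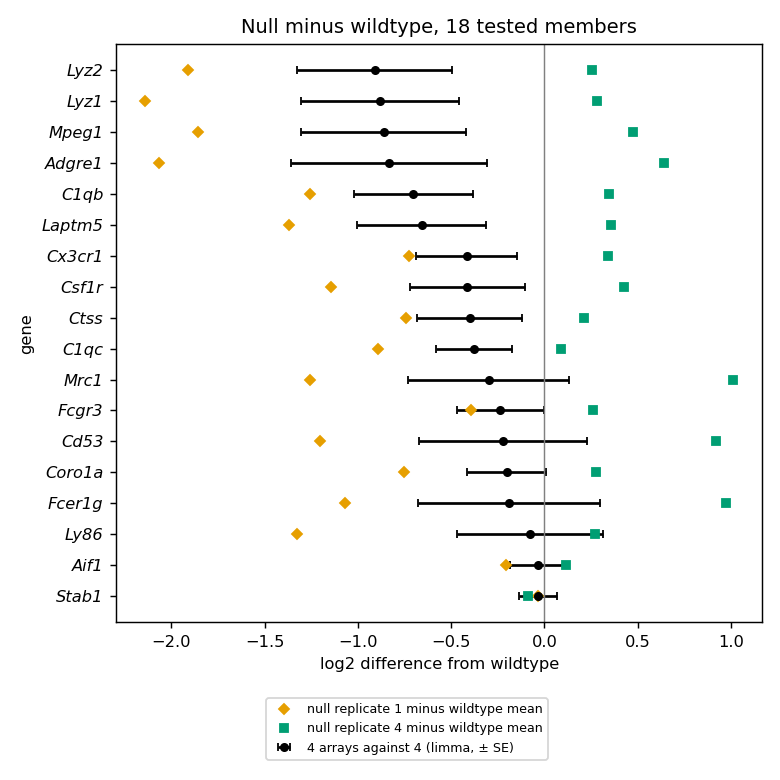
Log2 difference, null minus wildtype, of the 18 tested members. Black points with bars show the 4 against 4 comparison with its SE, diamonds null replicate 1 and squares null replicate 4, each minus the wildtype mean. Null replicate 4 lies above the wildtype mean in 17 of 18 genes.

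Across the 8 arrays, which share hybridization and normalization, each member was compared with the mean deviation of the other tested members, as a description. Adgre1 followed the others most closely (Pearson r = 0.995), then Mpeg1 (0.986), Lyz2 (0.971), C1qc (0.962) and Csf1r (0.961). Lyz1, C1qb, Cx3cr1, Laptm5 and Cd53 lay between 0.932 and 0.916, Ctss and Mrc1 at 0.876 and 0.859, and Fcgr3, Fcer1g, Coro1a and Aif1 between 0.768 and 0.718. Ly86 followed at 0.522 and Stab1 by its brightest probe at 0.04. With the genotype means subtracted, Adgre1 stayed at 0.995, Lyz2 at 0.985 and Csf1r at 0.952. Coro1a then gave 0.706, Ly86 0.555 and Stab1 -0.084. On the wildtype arrays alone Fcer1g gave 0.417, Mrc1 0.141, Coro1a -0.143 and Ly86 -0.156. On the null arrays alone these genes gave 0.995, 0.995, 0.874 and 0.684. Adgre1 was high on both (0.987 and 0.997). Other members followed more closely in wildtype, among them Aif1 (0.971 against 0.737) and Stab1 (0.575 against -0.684). Each value for a single genotype rests on few arrays.

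The other 14 members gave no tested value. Of the 12 with a probe matched to a single row of intensities, 6 were detected on no array: Ptprc, the phosphatase CD45; Spi1; C1qa; Fcgr1, the high-affinity receptor for immunoglobulin G; the chemokine Ccl3; and Pld4, a nuclease of the endolysosome. Their probes read at most 13 in the deposited intensity, which can be negative after background subtraction. The other 6 were detected on 1 to 3 arrays. Tyrobp, the signalling adaptor of many myeloid receptors, read 15.6, 13.3, 24.2 and 31.9 in wildtype and 6.6, 0, 8.4 and 21.5 in null arrays, and was detected on wildtype replicates 3 and 4 and null replicate 4.

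Trem2, a receptor for lipids and cell debris that signals through Tyrobp, read 18, 15.4, 27.9 and 23.4 in wildtype and 2.5, 13.4, 13.2 and 17.7 in null arrays, and null replicate 1 was again the lowest. The chemokine Ccl4 was detected on wildtype replicates 3 and 4 alone, at 25.5 and 22.7. Ms4a7, a membrane protein of macrophages, was detected on wildtype replicate 3 alone, at 34.2. Another matched probe of each was detected on no array. Cd14, part of the receptor for bacterial endotoxin, was detected on null replicate 2 and the integrin chain Itgb2 on null replicates 2 and 3, at intensities of 17.2 or less. The only probe of Itgam, the partner of Itgb2, matched several rows of intensities and gave no value. Genes detected on fewer than 4 arrays were not tested for a difference between genotypes in the main comparison.

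Further myeloid lists, outside the members, held few tested genes. Of 10 receptors and ligands of the colony-stimulating factor family, 3 were tested and 0 called, with Csf2ra at -0.50 ± 0.18 (adjusted p = 0.337), the macrophage growth factor Csf1 at -0.42 ± 0.26 (0.594) and Csf3r at -0.25 ± 0.16 (0.604). Of 13 transcription regulators of myeloid cells 4 were tested and 0 called, among them Cebpb (-0.25), Myb (-0.31) and Nr1h3 (-0.20), with a median of -0.26. Of 32 further surface genes of macrophages 11 were tested and 0 called, 9 of them below 0, with a median of -0.11. Fcrls, an Fc receptor-like gene of microglia and other macrophages, gave -1.05 ± 0.58 (adjusted p = 0.546), the coagulation factor F13a1 -0.55 ± 0.33 (0.578), and the toll-like receptor Tlr2 0.54 ± 0.17 (0.274).

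Among 20 genes of adaptors, kinases and signalling of phagocytes, 9 were tested, 8 were below 0 with a median of -0.51, and 1 was called. That gene was Lcp2, an adaptor of platelets, T cells and myeloid cells, which read 5.59, 5.65, 5.82 and 6.11 in wildtype and 4.55, 4.51, 4.71 and 4.76 in null arrays. It was not above background on any null array, at least 1.67-fold lower there (limma, adjusted p = 0.0066), and the groups did not overlap. Was, an actin regulator of blood cells, gave -0.78 ± 0.21 (adjusted p = 0.189) and the lipid kinase subunit Pik3cg -0.67 ± 0.19 (0.227). The oxidase subunit Cyba, the only tested gene of 5, gave -0.04 ± 0.18. Of 7 genes of antigen presentation 3 were tested and 0 called, with H2-Ab1 at -0.34, H2-DMa at -0.19 and B2m at -0.12.

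Lysosomal genes that many cell types use differed from the members in their evenness across arrays. Of 18 such genes 16 were tested, 0 were called, and the median was -0.08, with Hexa at -0.33 (adjusted p = 0.316), Ctsd at -0.57 (0.375) and Ctsh at 0.23 (0.573). Their mean deviation stayed between -0.07 and 0.12 on all 8 arrays. The members spanned -0.92 to 0.61 on the same arrays. A mean over a list can hide single genes, and Ctsc ran from 6.24 on null replicate 2 to 7.80 on null replicate 4. Gene by gene the median SD was 0.20 in wildtype and 0.16 in null, against 0.37 and 0.73 in the members. The lysosomal genes were also brighter, at a median level of 9.13 against 6.01.

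Markers of other cell types were read on the same arrays, and their part in the members' values was not tested. Platelet genes were lower in null, 10 of 12 tested genes (of 16 listed) being called. Plek, Gp5 and Tubb1, detected on all 4 null arrays, fell 5.64-fold, 6.41-fold and 9.17-fold. Gp1bb, Vwf, Treml1, Itga2b, Ppbp and Alox12 also passed but were detected on 2 or 3 null arrays, so their fitted folds rest in part on background readings, and Gp6, not above background on any null array, was at least 1.37-fold lower. Pf4, a chemokine stored in platelets and the only tested gene of 10 further chemokines, fell 8.42-fold (adjusted p = 0.0224). The platelet genes' mean deviation was 0.95 to 1.11 on the wildtype arrays and -1.52, -0.58, -0.64 and -1.40 on null replicates 1 to 4, so that null replicate 4 was low in platelet genes and high in the members. Their summed linear level was 3319 to 3850 in wildtype and 354 to 805 in null.

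Red cell genes had a mean deviation of 0.64, -0.18, 1.07 and 1.99 on null replicates 1 to 4 and -1.17 to -0.63 in wildtype. The embryonic globin Hbb-bh1 rose 7.83-fold (adjusted p = 0.0311), the 1 called gene of 8 tested (of 11 listed), with Hbb-y at 2.27 and Hba-a1 at 2.37 not called. Their summed linear level was 2311 to 4287 in wildtype and 5286 to 41219 in null. Muscle genes, 6 tested of 10 and 0 called, had a mean deviation of -0.72, 0.23, 0.48 and 0.87 on null replicates 1 to 4 and -0.49 to 0.03 in wildtype, with Myl1 at 0.21 and Actc1 at 0.15. Null replicate 1 was thus the lowest and null replicate 4 the highest array in muscle genes as in the members.

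Nerve and Schwann cell genes, 3 tested of 9 and 0 called, had a mean deviation of -0.57, -0.11, -0.09 and 0.06 on null replicates 1 to 4 and of 0.05 to 0.33 in wildtype, with Sox10 at -0.32 and Stmn2 at -0.85. They also were lowest on null replicate 1. Endothelial genes, 9 tested of 12 and 0 called, had a median of -0.51, with Ramp2 at -0.53 and Egfl7 at -0.29. They were highest on wildtype replicate 2 (1.14) and lowest on null replicate 1 (-0.60), while null replicate 4 read -0.39 and so was low where the members were high. Their summed linear level was 1656 to 3710 in wildtype and 1368 to 2069 in null.

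**Figure D5:**
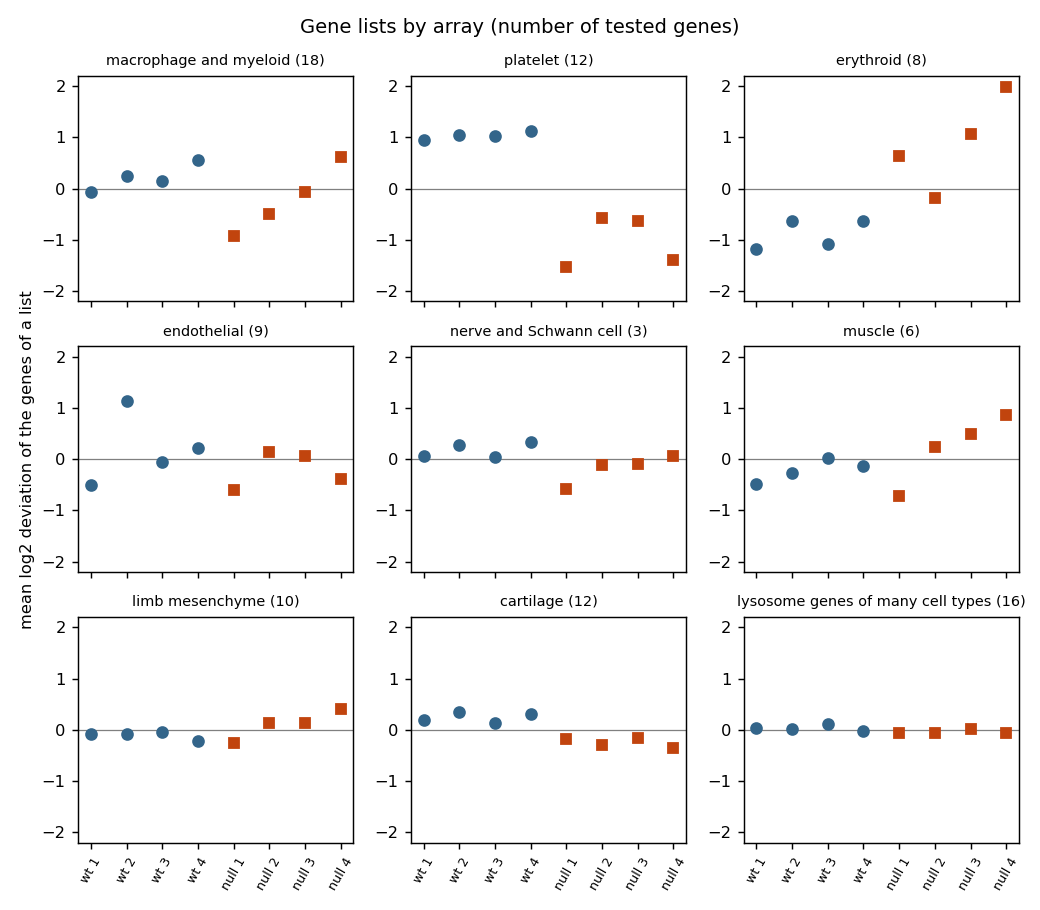
Mean log2 deviation of the tested genes of 9 gene lists on each array (wt, wildtype; circles for wildtype, squares for null; number of tested genes in the panel title). The members read -0.92 on null replicate 1 and 0.61 on null replicate 4, the platelet genes are high on all wildtype arrays, and the lysosomal genes of many cell types stay near 0.

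Of the markers of the skeletal domain, 8 of 12 cartilage genes and all 10 tested limb mesenchyme genes were detected on all 8 arrays. The 12 cartilage genes were all tested and all below 0, with a median of -0.47 and the matrix protein Comp called, 1.66-fold lower in null (adjusted p = 0.0318). Col2a1 gave -0.63 and Sox9 -0.09, neither called. Limb mesenchyme genes, 10 tested of 12 and 0 called, had a median of -0.04, with the bright markers Pdgfra at -0.05 and Col3a1 at -0.27. The largest differences in that list went the other way, with Msx1 at 1.43 ± 0.47 (adjusted p = 0.290) and Prrx1 at 1.18 ± 0.26 (0.0994). The mean deviation of the list was -0.25, 0.14, 0.13 and 0.41 on null replicates 1 to 4 and -0.21 to -0.05 in wildtype, so that null replicate 1 was its lowest and null replicate 4 its highest array, as in the members. Of 9 surface ectoderm genes 6 were tested and 0 called, with Krt14 at -0.09 and Krt18 at -0.30, and the summed linear level was 407 to 1025 in wildtype and 540 to 790 in null.

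Other white blood cells left little signal. Of 12 granulocyte genes Prtn3 alone was tested (0.05), and Mpo, Elane, S100a8, S100a9 and Ngp were not. Of 12 lymphoid genes Rag1 alone was tested (-0.06), and of 8 mast cell genes Kit alone (0.43), a receptor that other cells also carry. None of these 3 was called. Of 5 sex-linked genes 4 were tested and 0 called, with Eif2s3y at 1.47 ± 0.57 and Xist at 0.26 ± 0.79.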

How the data were processed

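Total RNA of sorted cells was hybridized to Illumina mouse whole-genome BeadChips, 1 array per sample. The authors deposited background-subtracted intensity values exported from GenomeStudio, of unstated version, with a detection score from 0 to 1 beside each. Its header names a detection p-value. As the score rose with the intensity (lowest Spearman correlation on an array 0.974), it was taken here as 1 minus the detection p. They also deposited a table of log2 values, centred per array and per probe, which named the probes. Its 45281 rows were joined to the intensities by their differences between arrays (tolerance 1e-04 on the log2 scale): 35454 had 1 match, and of the 54 member probes 44 did. The other 10, none with a candidate detected on 4 or more arrays, gave no value. The symbols come from the platform annotation.

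Intensities were corrected with neqc (limma 3.58.1, R 4.3.3; normexp, offset 16, quantile), which infers the negative controls from the detection p. Genotypes were compared by limma (two-sided, no covariate, Benjamini-Hochberg over the 19568 probes detected on at least 4 arrays). Called means an adjusted p under 0.05. A gene stands by its brightest tested probe by mean level. A bound ("at least") sets undetected readings to the lowest detected level of their array. The steps were tested on simulated data. Precision is limited by the number of arrays (median SE of a log2 fold 0.165 over all tested probes and 0.333 over the tested members). No source used here gives the chip or scan time of an array. The members and the 20 other lists were chosen with earlier results of these data known. Named outside the members were called genes of a list, up to 3 genes of each further myeloid list by smallest p, up to 2 markers of each other cell type by highest level, and the 10 genes most like the members. The 5 untested granulocyte genes, Bapx1, Msx1 and Prrx1 were named outside this rule. Alternatives covered background correction, normalization, filter, test, array weights, replicate block, probe choice and each array left out.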

Additional observations from a re-analysis of the deposited data

Results flagged for a closer look

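Among the members, C1qc was singled out by 1 array that stood far from the rest of its group. On wildtype replicate 4 its normalized log2 level was 5.70, and the other wildtype arrays lay between 5.34 and 5.37, so that the gap took 0.915 of the group's whole range, above Dixon's 95% critical value for 4 arrays. This was 1 of 36 groups of 4 arrays looked at, and chance passes that value in about 1 group in 20. In the deposited intensities, before normalization, C1qc read 35.9, 25.7, 27.6 and 25.1 on wildtype replicates 1 to 4. Wildtype replicate 4 was thus the lowest of the group there, and stood apart as high only after normalization. That array had the lowest median intensity of the 8 (7.5). It was the highest of all arrays in 10 of the 18 tested members after normalization and in 0 before it.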

How the results depend on the processing

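No member was called under any of the 19 alternatives in which probes were tested, and the lowest adjusted p of a member was 0.0614. The median log2 difference of the members stayed below 0 under each of the 20 alternatives that gave one, from -0.66 with the deposited log2 table to -0.14 with array weights. It was -0.21 with an offset of 50, -0.63 without normexp, -0.64 with scaling by median absolute deviation, and -0.41 with Stab1 read by its next brightest probe, an alternative chosen after seeing the data. C1qb went from -0.70 to -2.70 without normexp, -2.72 with that scaling and -2.68 with the deposited log2 table. Of 334 values of single members, 320 kept the direction of the main value and 14 turned. The changed filters, an ordinary t-test and the replicate block kept the group means of the main fit, so their values could not turn. For the same reason the median could not move without a filter or with the block. Stab1 became 0.19 with scaling by median absolute deviation, which moved the median of all tested probes to 0.06. Median centring moved that median to -0.14 and the deposited log2 table to -0.11. With array weights Fcer1g became 0.33, Aif1 0.065 and Cd53 0.20. With 1 array left out, values ran from -0.58 to 0.15 in Fcer1g, -0.74 to 0.020 in Mrc1, -0.12 to 0.046 in Aif1, -0.61 to 0.10 in Cd53, -0.32 to 0.34 in Ly86 and -0.069 to 0.0065 in Stab1, turning without wildtype replicates 3 and 4 and null replicates 1 and 2. The cause was not tested.

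The replicate numbers of the titles paired the arrays in part at most (correlations of same-numbered deviations 0.07, 0.46, 0.26 and -0.31). The null array most alike bore the same number for wildtype replicates 2 and 3, but not for 1 and 4. The replicate block left the differences unchanged and lowered the SE of every member but Stab1. In Lyz2 the SE went from 0.41 to 0.21 (limma adjusted p from 0.452 to 0.145), in Mpeg1 from 0.44 to 0.23 and in Adgre1 from 0.52 to 0.29. With the replicate block 0 members were called, the median of the members was -0.39, and 108 probes were called over the whole array in place of 149. That total was 59 without normexp, 10 with scaling by median absolute deviation, 65 with the deposited log2 table and 267 with array weights. An ordinary t-test on the values normalized here, where the methods name ANOVA, gave 53. The total was 97 for probes detected on all 8 arrays, and 59 to 150 with 1 array left out. Members near background limit what these arrays can show: 14 of 32 gave no tested value, and 4 of the 18 tested were detected on no more than 2 null arrays.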

Other observations

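The genes outside the set whose level across the 8 arrays was most like the mean deviation of the members are given as a description, over 10754 genes whose median correlation was 0.11. Of these, 18 exceeded 0.9 and 113 exceeded 0.8. Fcrls came first (Pearson r = 0.983), at 7.03, 7.98, 7.60 and 8.06 on wildtype replicates 1 to 4 and 5.03, 6.22, 6.98 and 8.24 on null replicates 1 to 4. Nckap1l, an actin regulator of blood cells (0.974), and Cyth4, an exchange factor for small GTPases (0.956), are also known from white blood cells. Cyth4 read 6.11, 6.94, 6.46 and 7.003 in wildtype and 5.19, 5.93, 6.45 and 6.86 in null arrays.

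The rest of the 10 are not known as macrophage markers. The endothelin receptor Ednrb (0.976), which neural crest derivatives and other cells carry, read 8.66, 9.15, 9.04 and 9.46 in wildtype and 7.99, 8.10, 8.89 and 9.42 in null arrays. The others were the kinase Tnik (0.954), the mitochondrial ribosomal protein Mrpl50 (0.956), the insulin receptor substrate Irs1 (0.940), Dpm1 of mannose donor synthesis (0.940), the kinase Pak6 (0.929) and Them4 (0.921). A high correlation does not mean a like span: the SD over the 8 arrays was 1.09 in Fcrls and 0.56 in Ednrb, but 0.08 in Mrpl50. Irs1 and Pak6, at mean levels of 5.34 and 5.11, lay near the lowest detected levels of the arrays (4.99 to 5.20). None of the 10 was called between genotypes (limma, adjusted p from 0.470 to 0.886).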
